A study of Mus musculus with 24 samples.

Results

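Chromosomes 6, 8, 10 and 13 of the mouse are described as 4 whole regions, on which gene levels in Gpr39 knockout (KO) cells lay to 1 side of wild-type (WT) cells along long runs of neighbouring genes. The deposited table names each row by chromosome and a running number, and all rows of these 4 chromosomes were taken in that order. They came to 2214 of the 12224 rows, and 2114 of these were among the 11557 that passed the filter on low values, which asks for a mean of 1 scaled unit or more across the 24 libraries. A row is called a gene below. By chromosome, 527 of 560 genes were kept on chromosome 6, 631 of 655 on chromosome 8, 542 of 569 on chromosome 10 and 414 of 430 on chromosome 13. The chromosomes were chosen from the KO against WT values themselves, so those values are a description, given without tests.

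RNA of mpkCCD cells, a mouse kidney line with features of collecting duct epithelium in the cortex, was sequenced after poly(A) selection in 24 libraries, 6 in each of 4 groups. The groups were WT cells with vehicle (0.1% DMSO), WT cells with 1 µM of the GPR39 agonist cpd1324, KO cells with vehicle and KO cells with the agonist. All 4 groups received 10 µM ZnCl2, all were treated for 2 h on the basolateral side, and all had grown on inserts for 9 days without dDAVP, a vasopressin analogue, and then for 24 h in a simple medium. Neither the edited site, nor the number of KO clones, nor whether the 6 libraries of a group came from separate cultures is stated in the labels. Libraries were numbered by group, so library order and group cannot be told apart. No DNA was measured.

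As background, cells kept in culture can gain or lose whole chromosomes or arms, and sublines of the same line can come to differ in this way. The RNA of many genes in such a stretch then tends to move together by a similar, moderate ratio, with single genes departing from it through their own regulation. Neighbouring genes can also share chromatin domains or common regulators. RNA levels alone do not separate these, and no cause was tested here.

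The sequences of promoters that flank the borders of the clearest steps are given first, since these 4 genes flank the borders found under vehicle on chromosomes 13 and 6. Their own differences stepped under vehicle, from -0.34 in Ercc6l2 to 0.18 in Zfp367 and from -0.23 in Kcmf1 to -0.52 in Tmsb10, on the log2 scale, but not with agonist, where they were -0.21, -0.27, -0.85 and -0.87. Ercc6l2, a relative of a DNA repair helicase, was the last gene before the step on chromosome 13. Zfp367, a zinc finger gene, was the nearest gene past that step with a promoter entry. Kcmf1, a ubiquitin ligase gene, was the last before the step on chromosome 6, and Tmsb10, which encodes a thymosin that binds actin monomers, was the first after it. Each line gives the 250 bases before an annotated start from RefSeq on GRCm38.p6, 5′ to 3′ along the gene's strand. Zfp367 had 2 promoter entries and Tmsb10 had 3, of which 1 each is printed. The intervals are chr13:63814990-63815239 on the plus strand for Ercc6l2, chr13:64153200-64153449 on the minus strand for Zfp367, chr6:72899980-72900229 on the minus strand for Kcmf1 and chr6:72958749-72958998 on the minus strand for Tmsb10. The submitters' processing notes name GRCm39 instead, so these positions belong to the reference alone. Capitals mark the GC box GGGCGG or its reverse complement CCGCCC, the core letters of a site for Sp factors.
Ercc6l2: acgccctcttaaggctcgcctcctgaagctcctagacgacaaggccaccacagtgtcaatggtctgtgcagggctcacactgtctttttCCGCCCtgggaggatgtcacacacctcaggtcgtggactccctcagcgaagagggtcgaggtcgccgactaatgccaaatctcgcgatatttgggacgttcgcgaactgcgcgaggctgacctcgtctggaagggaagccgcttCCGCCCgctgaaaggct
Zfp367: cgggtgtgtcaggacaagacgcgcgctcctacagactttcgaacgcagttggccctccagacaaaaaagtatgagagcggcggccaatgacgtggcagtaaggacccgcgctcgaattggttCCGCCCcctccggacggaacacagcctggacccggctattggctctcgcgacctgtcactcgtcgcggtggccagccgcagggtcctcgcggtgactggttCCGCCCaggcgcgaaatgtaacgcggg
Kcmf1: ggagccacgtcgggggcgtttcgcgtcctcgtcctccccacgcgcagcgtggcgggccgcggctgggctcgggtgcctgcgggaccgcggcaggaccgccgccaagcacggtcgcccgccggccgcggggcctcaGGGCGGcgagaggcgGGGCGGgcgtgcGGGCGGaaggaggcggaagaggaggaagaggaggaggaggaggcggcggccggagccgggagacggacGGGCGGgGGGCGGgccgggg
Tmsb10: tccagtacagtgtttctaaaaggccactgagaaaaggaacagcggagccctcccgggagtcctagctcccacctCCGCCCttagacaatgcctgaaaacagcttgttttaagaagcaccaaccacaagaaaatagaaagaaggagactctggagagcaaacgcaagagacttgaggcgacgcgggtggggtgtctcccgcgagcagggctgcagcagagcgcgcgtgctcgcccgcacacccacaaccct

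The printed stretches hold 2 GC boxes for Ercc6l2, 2 for Zfp367, 5 for Kcmf1 and 1 for Tmsb10, overlapping copies counted separately. A match of letters is a description, not a binding site. Searched on both strands, the GC box occurred in 32.9% of the 27025 RefSeq promoters of this length, 61.5% of those matched to genes kept on the other chromosomes and 58.0% to 65.0% of those matched on the 4 chromosomes. Of the 2114 genes, 1664 matched a promoter by symbol.

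Values are in scaled units, which are the deposited signal per gene length times 1 constant, so levels can be compared between genes. Differences are of log2(scaled units + 0.5), which understates changes of low genes. For a chromosome or segment, a score was taken in each library: the median over its genes of the log2 difference from the gene's mean in the WT libraries of the same treatment, minus the same median over the 9443 genes of the other 17 chromosomes. WT scores lie near 0 by construction, and a shift is the mean KO score minus the mean WT score. Vehicle and agonist shifts rest on separate libraries. Medians over all genes moved by scaling: the agonist effect in WT cells had a median of -0.01 as deposited and -0.24 with each library brought to the same total. The shifts, taken against the other chromosomes, are relative to that median.

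Recovered reads ran from 29.8 to 51.9 M reads per library. Gpr39, the targeted gene, which lies on chromosome 1, had a mean level under vehicle of 21.6 ± 1.61 scaled units (SD, n = 6) in WT and 9.37 ± 0.645 in KO cells, without overlap. Of 16 markers of the principal cell, 13 were kept, among them Aqp2, Aqp3, Avpr2 and the 3 Scnn1 subunit genes, while Aqp4, Gata3 and Krt8 were not among the genes analysed. Their summed level ranged from 4881 to 5472 scaled units in WT and from 4897 to 5420 in KO libraries under vehicle. It ranged from 9316 to 12135 in WT and from 4511 to 5384 in KO libraries with agonist, and its part in the agonist shifts was not tested. Of 6 fibroblast markers only Col1a1 was kept, at 0.629 to 1.56 scaled units in WT and 0.631 to 1.21 in KO libraries under vehicle, while Pdgfra, Pdgfrb and Dcn were not among the genes analysed. Of 6 endothelial and immune markers the macrophage genes Cd68 and Csf1r were kept, with sums of 59.9 to 66.8 in WT and 48.1 to 68.9 in KO libraries under vehicle and of 65.6 to 80.0 and 51.0 to 57.5 with agonist, while Pecam1 and Ptprc were not among the genes analysed. Some other marker groups did differ under vehicle, at low levels and without overlap. The 3 markers kept of 5 for thick limb and distal tubule summed to 3.22 to 4.78 in WT and 9.04 to 11.8 in KO libraries. They were Egf, Slc12a3 and Trpm6, while Umod and Slc12a1 were not among the genes analysed. Slc12a3 lies on chromosome 8, as do Cdh1 and Nr3c2 of the principal cell list. The 1 marker kept of 6 for proximal tubule ran from 8.06 to 10.6 in WT and from 4.49 to 6.77 in KO libraries. The 2 markers kept of 6 for the intercalated cell overlapped, with sums of 71.8 to 99.7 in WT and 85.8 to 99.8 in KO libraries. The part of these markers in the shifts was not tested. KO vehicle library 6 stood apart on chromosome 13, and KO agonist library 2 on its distal part, so shifts there are also given without them.

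Measured over all their genes, chromosomes 6, 10 and 13 were lower in KO than in WT cells and chromosome 8 was higher, under both treatments. Chromosome 6 stood at 80.1% of the WT level under vehicle and 80.0% with agonist. Chromosome 13 stood at 86.6% and 82.8%, and chromosome 10 at 88.7% and 86.9%. Chromosome 8 stood at 113% and 115%. These are shifts of the median gene, so a single gene can lie well to either side.

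Under vehicle, the 6 WT scores of chromosome 6 ran from -0.033 over a median of -0.0033 to 0.027 on the log2 scale, and the KO scores from -0.34 over -0.32 to -0.30. The WT scores of chromosome 8 ran from -0.0025 over -0.00019 to 0.0068 and the KO scores from 0.16 over 0.18 to 0.19. On neither chromosome did any KO library come near the WT range. On chromosome 10 the WT scores ran from -0.016 over 0.0011 to 0.018 and the KO scores from -0.20 over -0.17 to -0.15. On chromosome 13 they ran from -0.021 over -0.0038 to 0.031 in WT and from -0.24 over -0.22 to -0.13 in KO. The KO scores of chromosome 13 were the most spread of the 4, with a standard deviation (SD) of 0.0408 against 0.0107 to 0.0148 on the other members, and still did not overlap with WT.

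With agonist, the KO scores ran from -0.34 to -0.31 on chromosome 6, from 0.16 to 0.22 on chromosome 8, from -0.21 to -0.18 on chromosome 10 and from -0.30 to -0.23 on chromosome 13. The WT scores with agonist lay between -0.044 and 0.029 on all 4 chromosomes. Again no WT and KO libraries overlapped. Overlap is not given here for the other chromosomes, so it is not a mark of these 4.

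Of the 20 chromosomes scored, these 4 held the first 4 places by size of the vehicle shift, and also by that of the agonist shift. Chromosome 10, the last inside under vehicle, had a vehicle shift of -0.17, and chromosome 8 had 0.17. With agonist chromosome 8 was the last inside, at 0.20. Chromosome 14, the first outside, had -0.12 under vehicle and -0.13 with agonist. Chromosome 15 followed at -0.11 and -0.12 and chromosome 16 at -0.10 and -0.12. The values therefore fall off in steps, and under vehicle the membership of chromosomes 8 and 10 rests on a gap of 0.05.

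**Figure D1:**
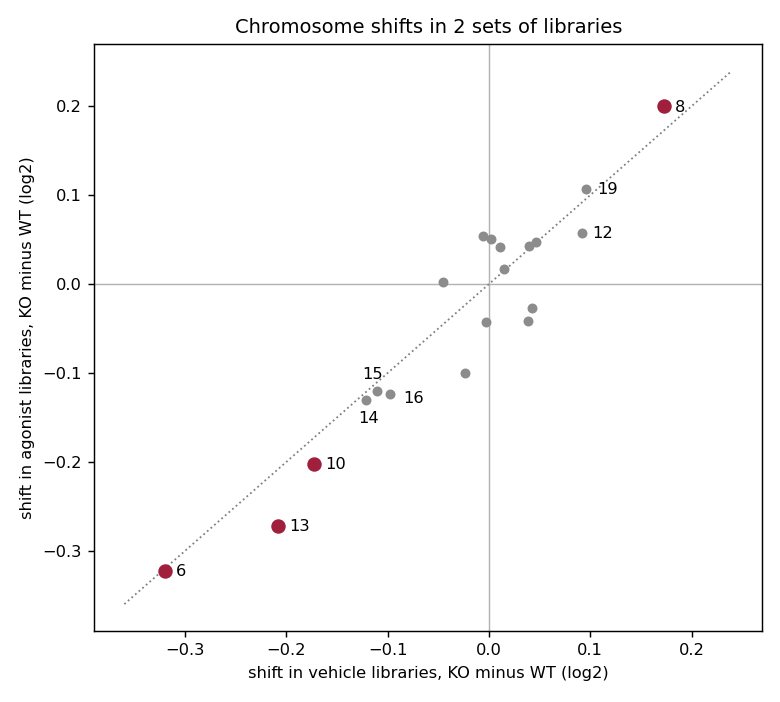
Shift of each of 20 chromosomes in KO against WT cells, on the log2 scale, under vehicle (horizontal axis) and with agonist (vertical axis). The 4 members are red, the dotted line marks equal shifts, and chromosome 6 lies at -0.32 on both axes while the next outside, chromosome 14, lies at -0.12 and -0.13.

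A segmentation of the vehicle differences along each chromosome gave 2 segments on each of the 4, with at least 20 genes a segment. Segments are named by chromosome with A for the proximal and B for the distal one, in the order of the numbered rows. With a median difference of at least 0.2 from the other chromosomes as the mark, on the log2 scale under vehicle, 4 of the 8 segments were shifted (6A, 6B, 10A and 13A, 1073 genes) against 2 of 26 segments on the other chromosomes, with 73 genes. On these 4 chromosomes the number was 2 with a pseudocount of 2, and 7 where a segmentation penalty 0.5 times as large cut more segments. Since the shift chose the chromosomes, these counts are a description.

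**Figure D2:**
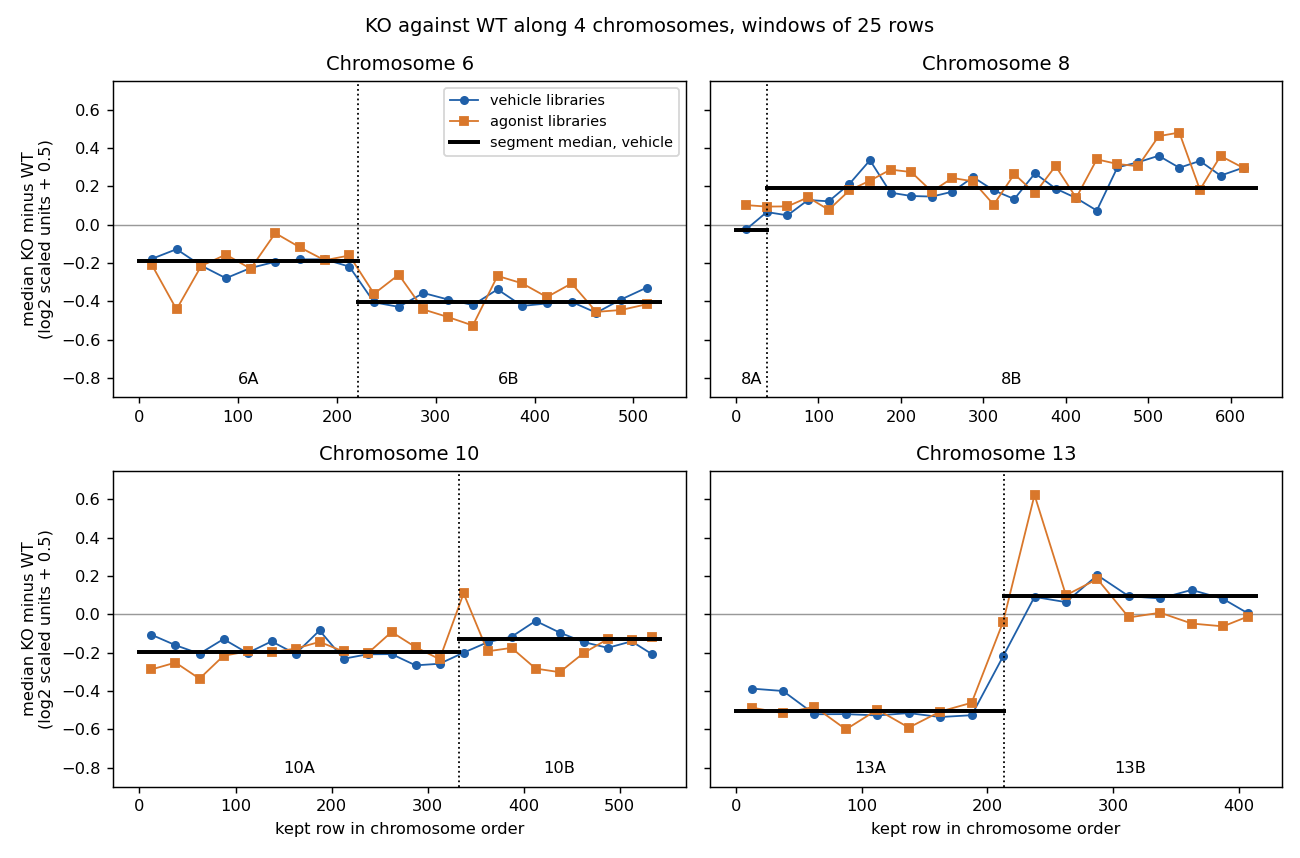
Median KO against WT difference along chromosomes 6, 8, 10 and 13 on the log2 scale, in windows of 25 genes against gene order, vehicle as circles and agonist as squares. Black lines are segment medians under vehicle and dotted lines segment borders; on chromosome 13 the first 8 windows lie between -0.54 and -0.39 under vehicle the ninth, which holds the border, at -0.22 and the later ones between 0.01 and 0.20.

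Chromosome 13 was not shifted as a whole. Its proximal 213 genes, from 2810429I04Rik to Ercc6l2 (segment 13A), were at 71.0% of WT in KO cells under vehicle and 69.1% with agonist, the lowest of the 8 segments. The distal 201 genes, from Slc35d2 to Zfp131 (segment 13B), were at 106% and 105%. The chromosome's score is thus a mixture of a stretch well below WT and a stretch slightly above it.

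In segment 13A the 6 KO scores under vehicle ran from -0.52 over a median of -0.50 to -0.44, and the WT scores from -0.014 over -0.0020 to 0.028. With agonist the KO scores ran from -0.56 over -0.54 to -0.50 and the WT scores from -0.036 over 0.0054 to 0.021. The KO libraries were all lower than all WT libraries under both treatments, with nothing in between. In segment 13B the KO scores ran from 0.033 over 0.060 to 0.20 under vehicle, and the WT scores from -0.029 over -0.0063 to 0.035, so the groups overlapped. With agonist they ran from 0.038 over 0.056 to 0.13 in KO and from -0.051 over -0.00011 to 0.029 in WT, without overlap.

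The highest KO score of segment 13B under vehicle came from KO library 6, and the highest with agonist from KO library 2. Without both libraries, segment 13B was shifted by 0.056 under vehicle and 0.055 with agonist, instead of 0.080 and 0.068. The agonist value was also as small as 0.019 over genes with a mean of at least 5 scaled units, and 0.022 with quantile scaling. Segment 13A then stood at -0.51 and -0.54, and chromosome 13 as a whole at -0.22 and -0.28. The step from 13A to 13B remained without these libraries.

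Along chromosome 13, the first 8 windows of 25 genes had medians between -0.54 and -0.39 under vehicle and between -0.60 and -0.46 with agonist. The ninth, from Gm35333 to Uqcrb, held the border and had -0.22 and -0.04. The 8 windows after it had medians from 0.01 to 0.20 under vehicle and from -0.06 to 0.62 with agonist, and 4 of them were above 0 under both. Of the last 10 genes before the border 9 were below 0 under vehicle, with a median of -0.40, and of the first 10 after it 5 were, with a median of 0.01. The border was placed on these vehicle values, so a step in them is by construction. With agonist 7 of the 10 before it were below 0 (median -0.18) and 3 of the 10 after it (median 0.09). The same border was found in 9 of 10 other settings of the segmentation, and in the agonist libraries alone it lay between Gm7240 and Gm3325.

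Most genes of segment 13A took part. Under vehicle 94.4% of them were below 0, against 47.8% of the genes on the other chromosomes, and 91.5% with agonist. Below 0 under both treatments were 187 of 213 (87.8%), against 30.0% on the other chromosomes, and above 0 under both were 4.

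Dsp, the gene of desmoplakin that anchors intermediate filaments at desmosomes, lies in 13A and stood at 375, 420 and 455 scaled units (lowest, median and highest) in WT and at 245, 256 and 274 in KO under vehicle. With agonist it stood at 429, 500 and 598 in WT and at 242, 285 and 299 in KO. Every KO library was below every WT library of its treatment, with differences of -0.68 and -0.84 on the log2 scale. Gadd45g, a stress-induced growth arrest gene, stood at 162, 201 and 212 in WT and 74.9, 107 and 117 in KO under vehicle, and at 286, 330 and 387 in WT and 79.4, 84.6 and 102 in KO with agonist. Its difference of -0.90 under vehicle and -1.94 with agonist was far beyond the median of its segment. Serpinb6a, a protease inhibitor gene, differed by -0.58 and -0.44, close to that median.

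Of 30 landmark genes kept in 13A, a list of well-known genes per chromosome, 29 were below 0 under vehicle (median -0.53) and 27 with agonist (median -0.56). The list included the kinase gene Syk, the Hedgehog receptor gene Ptch1 and the death-signalling kinase gene Ripk1. Of 29 landmark genes in 13B, 11 were below 0 under vehicle (median 0.08) and 13 with agonist. Among them, the stress-responsive kinase gene Plk2 differed by 0.36 under vehicle and -2.28 with agonist, the lysosomal protease gene Ctsl by -0.28 and -0.76, and Sdha, a subunit of succinate dehydrogenase, by 0.11 and 0.28. Landmarks of 13B thus lay on both sides of 0, while those of 13A lay mostly below. In 13A 1 lay above 0 under vehicle and 3 with agonist, among these Ptch1 at 0.13.

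Chromosome 6 was shifted down along its whole length, its distal stretch more. The 221 genes from Samd9l;Gm20559 to Kcmf1 (segment 6A) were at 86.9% of WT under vehicle and 85.5% with agonist. The 306 genes from Tmsb10 to Gm21814 (segment 6B) were at 75.2% and 75.4%. Segment 6B was the tightest of the strongly shifted segments among the KO libraries, with an SD of 0.00865 under vehicle.

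In 6A the KO scores ran from -0.23 over -0.21 to -0.16 under vehicle and the WT scores from -0.074 over 0.0019 to 0.059, and in 6B the KO scores ran from -0.42 over -0.41 to -0.40 and the WT scores from -0.015 over 0.00021 to 0.017. With agonist the KO scores of 6A ran from -0.24 over -0.23 to -0.19 and those of 6B from -0.43 over -0.40 to -0.39. Neither segment had overlapping groups under either treatment. The KO ranges of the 2 segments did not overlap either.

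All 21 windows of chromosome 6 had medians below 0 under both treatments, from -0.46 to -0.13 under vehicle and from -0.53 to -0.04 with agonist. The median of the last 10 genes before the border was -0.19 under vehicle and that of the first 10 after it -0.51, a step by construction, since the vehicle values placed the border. With agonist these medians were -0.04 and -0.56. The border lay at the same gene in 6 of 10 other settings, and in the agonist libraries alone it lay 1 gene earlier, between Gm15401 and Kcmf1. In 6B 90.2% of genes were below 0 under vehicle and 81.7% with agonist, and 242 of 306 (79.1%) under both. In 6A it was 79.2% and 72.0%.

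Gapdh, the glycolytic enzyme often used as a reference gene, lies in 6B. It stood at 7047, 7834 and 8814 scaled units in WT and 3864, 5449 and 7968 in KO under vehicle, and at 6614, 8314 and 9601 in WT and 3525, 5406 and 6517 in KO with agonist. The groups overlapped under vehicle, where the highest KO library lay inside the WT range, and not with agonist. Tpi1, its neighbour in glycolysis, stood at 1044, 1178 and 1224 in WT and 622, 747 and 938 in KO under vehicle, without overlap, a difference of -0.60. Cd9, a tetraspanin gene, differed by -0.70 under vehicle and -1.17 with agonist, from 399, 414 and 439 in WT to 239, 257 and 266 in KO under vehicle.

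All 21 landmark genes kept in 6B were below 0 under vehicle, from -0.93 to -0.12 with a median of -0.50, and 20 of 21 with agonist. They spanned unrelated functions, among them the cyclin-dependent kinase inhibitor gene Cdkn1b and the tumour necrosis factor receptor genes Tnfrsf1a and Ltbr. Cdkn1b was the 1 landmark above 0 with agonist, at -0.37 under vehicle and 0.22 with agonist. Chd4, a chromatin remodeller, had 1 of the smaller differences at -0.25 and -0.20, and with agonist it was 0.085 where each library had the same total. Ptms, which encodes parathymosin, differed by -0.50 and -0.54. In 6A 7 of 11 landmark genes were below 0 under vehicle (median -0.12) and 10 of 11 with agonist. Capza2, an actin capping gene of 6A, differed by -0.13 and -0.52.

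Genes of chromosome 8 were higher in KO cells over nearly the whole length. The 593 genes from Gm15353 to Gm32856 (segment 8B) were at 114% of WT under vehicle and 116% with agonist. The first 38 genes, from Insr to Atp11a (segment 8A), were nearer to the other chromosomes, at 96.9% and 104%. In 8B the KO scores ran from 0.18 over 0.19 to 0.20 under vehicle and from 0.18 over 0.21 to 0.23 with agonist, and the WT scores from -0.0035 over 0.0017 to 0.0040 and from -0.020 over -0.0014 to 0.014. These groups did not overlap, while those of 8A overlapped under both treatments.

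Of 25 windows on chromosome 8, 24 were above 0 under both treatments. Medians ran from -0.02 to 0.36 under vehicle and from 0.08 to 0.48 with agonist. The window from Ddx19b to Cenpn near the distal end had 0.36 and 0.46, and the next, from Atmin to Zdhhc7, 0.30 and 0.48. Low windows lay also within 8B, such as that from Champ1 to Gpat4 with 0.05 and 0.10. The shift was therefore uneven along the chromosome. In 8B 17.5% of genes were below 0 under vehicle and 24.1% with agonist, and 409 of 593 (69.0%) were above 0 under both, against 34.8% on the other chromosomes. A segment of 399 genes on chromosome 2 had 59.1% above 0 under both. The border of 8A was found at the same gene in 4 of 10 other settings only.

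Mt1 and Mt2, the metallothionein genes whose products bind zinc and copper, lie in 8B. Mt1 stood at 6125, 7539 and 8966 scaled units in WT and 8661, 10494 and 14894 in KO under vehicle, and at 3654, 3931 and 4640 in WT and 7105, 8406 and 10608 in KO with agonist. The groups overlapped slightly under vehicle and not with agonist, with differences of 0.52 and 1.10. Mt2 differed by 0.48 and 1.15. Cdh1, the gene of E-cadherin, stood at 768, 795 and 822 in WT and 923, 958 and 1089 in KO under vehicle, and at 1325, 1448 and 1751 in WT and 935, 972 and 1031 in KO with agonist. Its KO libraries were above WT under vehicle and below WT with agonist, at 0.30 and -0.58. Hmox1, the heme oxygenase gene, likewise differed by 0.48 and -1.67, and Calr, the chaperone calreticulin, by 0.16 and -0.65. Lamp1 of the lysosomal membrane differed by 0.15 and 0.10.

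Of 30 landmark genes in 8B, 24 were above 0 under vehicle (median 0.24) and 18 with agonist (median 0.11). In 8A 4 of 5 were below 0 under each treatment, and Efnb2, an ephrin ligand gene, differed by -0.81 and -0.93.

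Chromosome 10 was lower in KO cells, by about the same size as chromosome 8 was higher, and its segments differed little. The 333 genes from H60c to Dohh (segment 10A) were at 87.1% of WT under vehicle and 86.4% with agonist, and the 209 from Nfic to Itga7 (segment 10B) at 91.7% and 88.4%. In 10A the KO scores ran from -0.22 over -0.20 to -0.18 under vehicle and from -0.23 over -0.21 to -0.19 with agonist. In 10B they ran from -0.15 over -0.13 to -0.091 and from -0.19 over -0.17 to -0.15. The WT scores of both segments lay between -0.036 and 0.032 under both treatments, without overlap.

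Windows of chromosome 10 were below 0 under both treatments in 21 of 22, from -0.27 to -0.03 under vehicle. The border between Dohh and Nfic was found in 7 of 10 other settings and not at all in the agonist libraries taken alone. Below 0 were 83.2% of the genes of 10A under vehicle and 70.9% with agonist, and 71.8% and 67.5% in 10B. On the other chromosomes, the distal segment of chromosome 11 (401 genes) had 76.3% and 54.9% below 0. The distal segment of chromosome 15 (239 genes) had 78.2% and 62.3%. Long stretches with most genes below 0 under vehicle were thus not particular to the 4 chromosomes.

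Bsg, the gene of the membrane glycoprotein basigin, stood at 3106, 3866 and 4244 scaled units in WT and 2488, 2911 and 3326 in KO under vehicle, with overlap, and differed by -0.39 under vehicle and -0.45 with agonist. Psap, a lysosomal activator protein gene, differed by -0.15 and -0.04, and Gpx4, which protects membrane lipids from peroxidation, by -0.11 and -0.12. Of 29 landmark genes in 10A 25 were below 0 under vehicle (median -0.24) and 24 with agonist, and in 10B all 15 were below 0 under vehicle (median -0.23) and 12 with agonist. In 10B, the thioredoxin reductase gene Txnrd1 differed by -0.18 and -1.59 and the endoplasmic reticulum chaperone gene Hsp90b1 by -0.16 and -1.41. Landmarks therefore lay below WT on both segments, with a wide range with agonist.

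**Figure D3:**
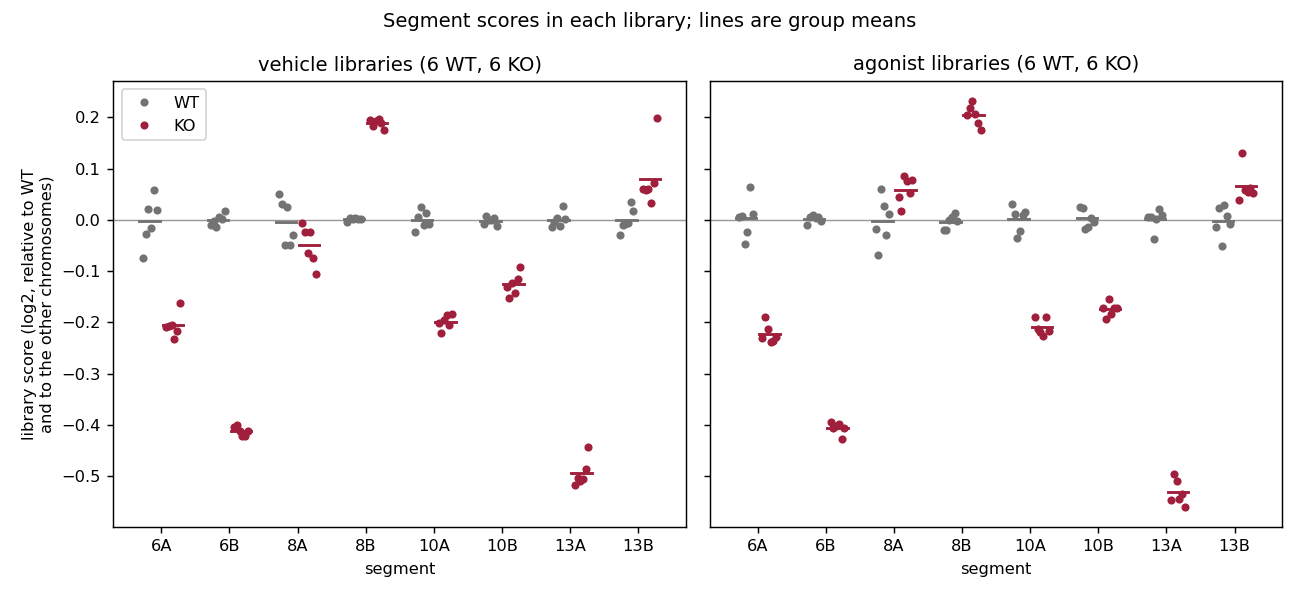
Score of each segment in each library on the log2 scale, WT grey and KO red, with lines for group means, under vehicle and with agonist. In 13A and 6B the KO libraries lie at -0.44 or below and at -0.39 or below, while in 8A and, under vehicle, 13B the groups overlap.

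In 13A and 6B most of the distribution of vehicle differences lay below 0, not a tail of strongly changed genes alone. In the other segments a larger share lay on the other side, and 8A and 13B had genes to both sides of 0. The middle of the vehicle differences on the other chromosomes ran from -0.13 at the lower quartile to 0.16 at the upper. Relative to those chromosomes, the median under vehicle was -0.52 in 13A, -0.41 in 6B, -0.21 in 10A and -0.20 in 6A, and 0.18 in 8B. Single segments outside the members reached 0.26 on chromosome 19 (20 genes) and 0.21 on chromosome 5 (53 genes). Longer ones had 0.16 on chromosome 2 (399 genes) and -0.16 on chromosome 11 (401 genes). Sorted by mean level into terciles, the genes of 13A had medians of -0.44, -0.50 and -0.52 from low to high, and those of 6B -0.36, -0.44 and -0.41. Sorted by gene length, they had -0.57, -0.47 and -0.47 in 13A and -0.39, -0.40 and -0.41 in 6B. Under vehicle all terciles of both segments were thus lower. With agonist the differences depended more on level, at -0.14, -0.40 and -0.48 from low to high in 6B and -0.38, -0.51 and -0.62 in 13A. The other chromosomes also fell from low to high with agonist, at 0.12, 0.04 and -0.08. So did 13B, at 0.49, 0.02 and -0.06.

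The summed signal followed in 13A, 6B and 8B. Segment 13A held 1.32% of all signal in WT libraries under vehicle (SD 0.00453, n = 6) and 0.935% in KO libraries, and 1.40% and 0.933% with agonist. Segment 6B held 3.40% and 2.51% under vehicle and 3.24% and 2.50% with agonist. Segment 8B held 5.68% and 6.93%, and 4.97% and 6.70%. Segment 13B did not follow its score with agonist, at 0.974% in WT and 0.951% in KO libraries, with overlap. The groups of 10B overlapped under vehicle, at 2.36% and 2.25%. A sum is ruled by the most abundant genes, such as Gapdh in 6B and Mt1 in 8B, whereas the scores weigh every gene alike.

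The vehicle and agonist libraries gave similar profiles. Over the 85 windows of the 4 chromosomes, the vehicle and agonist medians had a Pearson r of 0.903 and a Spearman rho of 0.883, and over the 377 windows of the other chromosomes 0.489 and 0.474. Windows share libraries and neighbouring genes, so these are descriptions. The figure for the 85 windows is carried by differences between the segments: within single chromosomes r was 0.881 on 13, 0.613 on 6, 0.576 on 8 and -0.277 on 10. On chromosome 10 the finer ups and downs along the chromosome were not shared by the treatments.

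Windows that moved by more than 0.2 between treatments numbered 6 of 85 on these chromosomes and 24 of 377 on the others. On chromosome 6 the window from Tes to Flnc went from -0.13 under vehicle to -0.44 with agonist. On chromosome 8 the window from Phaf1 to Nutf2 went from 0.07 to 0.34. On chromosome 10 the window from Apba3 to Gm4924 went from -0.20 to 0.11, that from Amdhd1 to Cep290 from -0.03 to -0.28 and that from Tmtc2 to Cct2 from -0.09 to -0.30. The largest move of the 6 was on chromosome 13, where the window from Gm10767 to Zfp85 went from 0.09 to 0.62. In that window the median agonist effect was -0.55 in WT and -0.17 in KO cells.

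That window lies in a run of zinc finger genes, many of them coding for repressors of the KRAB type. Segment 13B held 22 genes named Zfp, a group chosen after its values were seen. Their median KO against WT difference was 0.15 under vehicle and 0.55 with agonist. In WT cells 20 of them fell with agonist and 2 rose in limma (median -0.56), where 28.6% of all genes were called lower, and 153 of 224 such genes on the other chromosomes fell and 21 rose (median -0.34). The genes of this family on 13B moved in the same direction as those elsewhere, also under other scalings. Many of them have close copies, so reads may be shared among them.

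The agonist effects were not used to choose the chromosomes and could be tested with limma. In WT cells, 608 of the 2114 genes rose with agonist and 622 fell at an adjusted p below 0.05, together 58.2%, beside 57.2% of all genes. By chromosome, 136 rose and 162 fell on chromosome 6, 162 and 186 on chromosome 8, 183 and 150 on chromosome 10, and 127 and 124 on chromosome 13. In KO cells 95 rose and 103 fell, beside 9.30% of all genes, 4.66% higher and 4.64% lower, and without KO vehicle library 6 and KO agonist library 2 the number called there was 475 instead of 198. The agonist effect differed between WT and KO for 896 of the 2114 genes, beside 41.1% of all genes, 19.6% above and 21.5% below 0. These shares are near the background, so agonist responses were about as frequent on these chromosomes as elsewhere. Whole segments showed no common displacement by the agonist, since median agonist effects per segment lay between -0.06 and 0.05 in WT cells and between -0.06 and 0.06 in KO cells.

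The balance of rises and falls depends on the scaling between libraries. With each library brought to the same total, 251 of the 2114 genes rose and 1306 fell in WT cells, and in KO cells 119 rose and 61 fell. Over all 11557 genes it was 1433 and 6944 in WT cells and 643 and 318 in KO cells. For the difference in agonist effect the split was then 1214 above and 213 below 0, against 432 and 464 as deposited. Over all genes it was 6415 and 1130 with the same total, so the imbalance was not particular to these chromosomes.

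On chromosome 10 the agonist raised several of the most responsive genes in WT cells. Tnfaip3, which restrains NF-kappaB signalling, stood at 12.0, 13.3 and 15.5 scaled units in WT under vehicle and at 333, 456 and 557 with agonist, and at 9.72, 11.5 and 14.0 and 9.59, 10.3 and 11.6 in KO. It rose by 4.99 ± 0.10 (log2, SE, n = 6 against 6) in WT, with a limma adjusted p of 2.35e-22, and the KO effect was -0.16 with an adjusted p of 0.293. Phlda1, an immediate early gene, rose by 3.73 ± 0.12 in WT (adjusted p 1.47e-18) and Ccn2, a target of YAP signalling, by 2.56 ± 0.12 (adjusted p 3.31e-15). Sgk1, the aldosterone-induced kinase that stimulates epithelial sodium channels, fell from 213, 257 and 343 to 88.3, 109 and 134 in WT, by 1.26 (adjusted p 6.61e-10). In KO cells Sgk1 stood at 95.1, 108 and 130 under vehicle and 77.8, 89.8 and 117 with agonist, with a KO effect of -0.28 (adjusted p 0.113). For all 4 genes the limma test of the difference between the KO and WT effects passed the threshold.

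On chromosome 6, Gprc5a, an orphan receptor gene, stood at 444, 492 and 577 scaled units in WT under vehicle and at 1720, 2055 and 2500 with agonist, without overlap. It rose by 2.04 ± 0.08 (limma adjusted p 3.52e-17), while the KO effect was -0.07 (adjusted p 0.602). Flnc, an actin cross-linker of the filamin family, rose by 2.37 ± 0.11 in WT (adjusted p 3.08e-15), and Gadd45a by 2.00 ± 0.09 (adjusted p 3.24e-16). Clec2d, a C-type lectin gene, fell by 2.09 (adjusted p 6.86e-12). Gadd45a and Flnc belong to 6A, where KO cells were at 0.42 and 0.31 under vehicle, above WT and so against the direction of their segment.

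On chromosome 13, Plk2 stood at 198, 210 and 243 scaled units in WT under vehicle and at 1036, 1182 and 1396 with agonist, and at 231, 268 and 324 and 218, 244 and 288 in KO. It rose by 2.46 ± 0.08 in WT (limma adjusted p 2.66e-18), and the KO effect was -0.17 (adjusted p 0.166). Arrdc3, an arrestin-like gene, fell by 1.72 in WT (adjusted p 2.73e-11). On chromosome 8, Hmox1 rose by 1.59 ± 0.17 in WT (adjusted p 1.99e-08), from 649, 972 and 1209 to 2275, 2629 and 3460, and fell by 0.57 in KO cells (adjusted p 0.0418, and 0.0695 in a fit of the KO groups alone). Mt1 fell by 0.91 in WT (adjusted p 1.07e-07), with a KO effect of -0.33 (adjusted p 0.0538), and Cdh1 rose by 0.89 ± 0.05 in WT (adjusted p 4.77e-13), with a KO effect of 0.0039 (adjusted p 0.971). The sign change of Cdh1 and Hmox1 between the treatments, in KO against WT, thus goes with a rise in WT cells.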

How the data were processed

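Polyadenylated RNA was sequenced in 24 libraries, 6 in each of 4 groups, and the sample titles gave group and library number. The deposited table has 12224 rows, each with its gene length and 24 signal values made by the authors. The submitters' processing notes name GRCm39, DESeq, DESeq2 and STAR 2.7.8a, in roles that are not given in the sources used here, nor is the strand of counting.

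The deposited signal times gene length and a factor per library gave whole numbers within 0.08 for 100% of the small values, where this was checked. It was therefore read as counts divided by a library factor and by length. The recovered reads, 29.8 to 51.9 M per library, served an alternative only. All signals were multiplied by 92.1, which brings the mean column total to 1000000 scaled units. The filter on low values kept 11557 rows. Of all rows, 11498 had a name used once, 333 had joined names and 393 repeated names, and the last 2 kinds may share reads with near-identical genes.

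Differences of log2(scaled units + 0.5) came from limma 3.58.1 (R 4.3.3, trend and robust options), with all 24 libraries and 1 term per group, and called rows had a Benjamini-Hochberg adjusted p below 0.05 over all rows. The labels do not say that libraries were separate cultures, so p-values measure the spread between these libraries. Segments were found by optimal partitioning of the vehicle differences, limited to 1 in size, with at least 20 rows and a penalty of 4 times their squared spread times the logarithm of the row number. Scripts were tested on simulated data. Row order was checked against RefSeq gene positions. Named genes are, per chromosome, the 6 landmark genes of highest mean level and the highest of each segment, the 3 highest and 3 lowest called agonist effects in WT cells whose groups do not overlap, and the genes at the borders; other landmark genes are listed by function only. The members and lists were chosen with earlier results of these data known. Other pseudocounts, filters, scalings, fits, segmentations and sets of libraries were tried.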

Additional observations from a re-analysis of the deposited data

Results flagged for a closer look

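The first kind of result is a library far from the other 5 of its group, where the gap to its nearest neighbour was a larger share of the group's range than Dixon's critical value at 95% allows for 6 values. This was so in 16 of 260 groups looked at, and chance gives about 1 in 20. On chromosome 13, KO vehicle library 6 scored -0.13 over the whole chromosome and 0.20 in segment 13B, above the other KO vehicle libraries, and KO agonist library 2 scored 0.13 in 13B. WT agonist library 3 scored -0.044 on chromosome 13 and -0.036 in 13A, the lowest of its group.

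Among named genes, KO vehicle library 6 stood apart for Lamp1 at 870 scaled units, Gpx4 at 1066, Hsp90b1 at 688, Ctsl at 168, Gadd45g at 74.9, Tmsb10 at 2597 and Mylip at 94.3. This 1 library thus accounts for 9 of the 16 cases. Chd4 stood apart at 208 in WT agonist library 2, Hsp90b1 at 683 in WT vehicle library 6, Asb5 at 1.38 in KO agonist library 5 and Zfp759 at 0.657 in WT agonist library 3.

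The second kind is an agonist effect that differed between KO and WT cells, with a limma adjusted p below 0.05 for the difference, found for 37 of the genes named with values. Values are the KO effect minus the WT effect on the log2 scale, and the adjusted p ran from 4.94e-19 for Tnfaip3 to 0.0301 for Tmsb10. Below 0 on chromosome 6 were Cd9 at -0.47, Capza2 at -0.40, Kcmf1 at -0.62, Tmsb10 at -0.36, Gadd45a at -2.13, Gprc5a at -2.10 and Flnc at -2.15, and above 0 Clec2d at 1.75, Depp1 at 1.80 and Etfbkmt at 1.00. Both directions thus occurred on a chromosome whose genes were mostly lower in KO cells.

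On chromosome 8 the metallothionein genes Mt1 and Mt2 had 0.58 and 0.67, Zfp791 had 1.22, and the genes of the growth factor Angpt2 and the transcription factor Maf had 0.79 and 0.86. Hmox1 had -2.15, Cdh1 -0.88, Calr -0.81, Il17c -2.90, Asb5 -3.45 and Snai3 -2.80, the last 3 at low levels. On chromosome 10 the values below 0 were -2.67 for Ccn2, -1.41 for Txnrd1, -1.25 for Hsp90b1, -3.80 for Phlda1 and -5.15 for Tnfaip3, and those above 0 were 1.18 for Sesn1 and 0.99 for Sgk1.

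On chromosome 13, Plk2 had -2.64, Ctsl -0.48, Gadd45g -1.04, Tmem171 -2.82 and Pxdc1 -2.99, while Arrdc3 had 1.48, Mylip 1.18 and Zfp759 0.74. Gpr39 on chromosome 1 had -0.43. In most of these genes the agonist effect in WT cells was the larger of the 2.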

How the results depend on the processing

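No chromosome shift changed direction under the 10 alternatives that bear on it; 70 of 80 values stayed within 1 SD and 10 moved further. With a pseudocount of 2, chromosome 6 had -0.29 under vehicle and -0.30 with agonist, chromosome 8 had 0.16 under vehicle, and with agonist chromosome 10 had -0.19 and chromosome 13 -0.24. With a mean of at least 5 scaled units, chromosome 6 had -0.34 with agonist and chromosome 13 -0.26 under vehicle and -0.31 with agonist. With quantile scaling, chromosome 10 had -0.16 and chromosome 13 -0.31 with agonist. Of 160 segment shifts 145 stayed within 1 SD and 15 moved further, none reversed, and the 13B shift with agonist, 0.068, fell to 0.019 with a mean of at least 5 scaled units and to 0.022 with quantile scaling. The number of shifted segments, 4, became 2 at a mark of 0.3, 7 with a penalty 0.5 times as large and 2 with a pseudocount of 2.

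Without KO vehicle library 6 and KO agonist library 2, the agonist effect in KO cells was called for 2623 genes in all and 475 on the 4 chromosomes, against 1075 and 198. Genes whose agonist effect differed between KO and WT numbered 4746 and 896, and 7545 and 1427 where all libraries had the same total, 7850 and 1477 with voom on recovered reads.

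Directions of named genes turned in some scalings. The agonist effect in WT cells turned with quantile scaling for Gapdh (-0.49), Ptms (-0.20), Chd4 (-0.051), Dsp (-0.030), Ctsl (-0.038) and Tmsb10 (-0.012). With the same total it turned for Ptms (-0.080), Chd4 (-0.057), Ctsl (-0.044) and Efnb2 (-0.20), and with voom for Ptms (-0.12), Chd4 (-0.10), Capza2 (-0.014), Ctsl (-0.088) and Efnb2 (-0.24). KO against WT with agonist turned with quantile scaling for Tpi1 (0.0073) and Chd4 (0.059), with the same total for Chd4 (0.085), Ercc6l2 (0.065) and Sgk1 (0.030), and with voom for Chd4 (0.11), Ercc6l2 (0.091) and Sgk1 (0.052). The cause was not tested.

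Library numbers did not pair the libraries: over 36 same-numbered pairs the correlations ran from -0.31 to 0.49, and 10 exceeded 0.1. With the library number as a replicate block, 1223 genes of the 4 chromosomes were called for the agonist effect in WT, 209 for that in KO and 888 for their difference, and no count moved by over 1.5 times. Depth limits single genes at low level more than medians over a segment.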
